A study of Saccharomyces cerevisiae with 47 samples.

Results

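Reb1 sites between tandem genes are the sites of the Reb1 list deposited with the series that lie in the gap between a pair of neighbouring protein-coding genes transcribed in the same direction. A distinct site was a member if its centre fell outside every annotated gene of the R64 yeast build and its 2 flanking protein-coding genes lay on the same strand. Of 942 distinct Reb1 sites, 348 (36.9%) met this rule, against 342 (36.3%) between divergent genes, 224 (23.8%) inside protein-coding genes and 21 (2.23%) between convergent genes. Beyond presence in the deposited list, no measured value entered this rule. In this text a tandem gap runs from the stop codon of the upstream gene to the start codon of the downstream gene, and each site is named by its downstream gene.

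The list came from chromatin assembled in vitro by salt gradient dialysis from a yeast plasmid library and recombinant yeast histones. Strep-tagged Reb1 was added at 50 nM, either alone or together with 1 of 4 ATP-dependent chromatin remodelers (Chd1, ISW2 and INO80 at 24 nM each, RSC at 12 nM), and was then pulled down after crosslinking and nuclease digestion. The series held 47 samples, 24 pulldowns and 23 inputs, of which 10 were Reb1 pulldowns with the factor and 2 were pulldowns of that series without factor or remodeler, with at most 2 replicates per group. The list carries no sample, so sequencing depth, replicate spread, the level in the controls and any effect of a remodeler could not be read from it, and each interval and p-value below covers counting over sites only. According to the design text, the assembled DNA came from chromosomes V to IX, and 100 of the 348 sites lay there. Not given in the sources used here was whether the other chromosomes were present in the reactions.

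Reb1 is an essential Myb-type DNA-binding protein and one of the general regulatory factors of budding yeast. It binds a short motif in many promoters, helps to keep them free of nucleosomes, and is also known to stop transcription by RNA polymerase I and RNA polymerase II when bound in the path of the enzyme. A tandem gap holds the 3′ end of one gene and the promoter of the next, so a site there has a start codon on one side, a stop codon on the other, and transcription running toward it from one direction. Between divergent genes a site has a start codon on both sides, and both neighbours are transcribed away from it.

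Few tandem gaps held a site, and those that did mostly held 1. The 348 sites fell in 317 of 2825 tandem gaps (11.2%). One site was found in 297 gaps, 2 sites in 14, 3 sites in 3, 4 sites in 2 and 6 sites in 1. Gaps with a site had a median length of 442 bp (interquartile range 322 to 813 bp), and all tandem gaps had a median of 401 bp (280 to 629 bp). A site was found in 5.06% of the 237 gaps of up to 200 bp, in 8.91% of those over 200 and up to 300 bp, in 11.3% over 300 and up to 400 bp and in 12.3% over 400 and up to 500 bp. The share was 11.4% for gaps over 500 and up to 700 bp, 13.8% over 700 and up to 1000 bp, 15.5% over 1000 and up to 2000 bp and 16.9% of the 83 longer ones. Longer gaps thus held a site more often, while the number of sites per kb of gap DNA ran from 0.364 in the shortest class to 0.107 in the longest. On chromosomes V to IX alone, 12.5% of 706 tandem gaps held a site.

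Sites were concentrated 100 to 200 bp before the downstream start codon. The median distance from the site centre to the start codon was 208.5 bp (interquartile range 152 to 403 bp), and 154 of the 348 sites (44.3%) were 100 to 200 bp from it. Density was 0.0218 sites per kb in the first 50 bp before the start codon (3 sites, 95% exact Poisson interval 0.00450 to 0.0638) and 0.0576 per kb from 50 to 100 bp (8 sites, 0.0249 to 0.113). It was 0.518 per kb from 100 to 150 bp (71 sites, 0.405 to 0.654) and 0.627 per kb from 150 to 200 bp (83 sites, 0.499 to 0.777), the highest of the classes, with intervals that do not reach those of the first 100 bp. Beyond that it was 0.311 per kb from 200 to 250 bp, 0.169 per kb from 300 to 400 bp, 0.238 per kb from 400 to 500 bp and 0.133 per kb from 750 to 1000 bp. Only 11 sites lay under 100 bp from the start codon, 62 lay over 500 bp from it and 21 over 1000 bp. Most of those over 1000 bp belonged to 4 arrays near chromosome ends, described further on.

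Seen from the upstream gene, the sites were spread more evenly. The median distance to the stop codon was 214.5 bp (126 to 478 bp). Density was 0.0801 sites per kb in the first 50 bp after the stop codon (11 sites, 0.0400 to 0.143), then 0.353 per kb from 50 to 100 bp (49 sites), 0.367 per kb from 100 to 150 bp (50 sites) and 0.365 per kb from 150 to 200 bp (48 sites). It was 0.297 per kb from 200 to 250 bp and 0.168 per kb from 300 to 400 bp. The class at 50 to 100 bp thus had 49 sites after stop codons and 8 before start codons. Because most gaps are short, these are often the same sites counted from either end, and 126 sites lay under 250 bp from both.

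**Figure D1:**
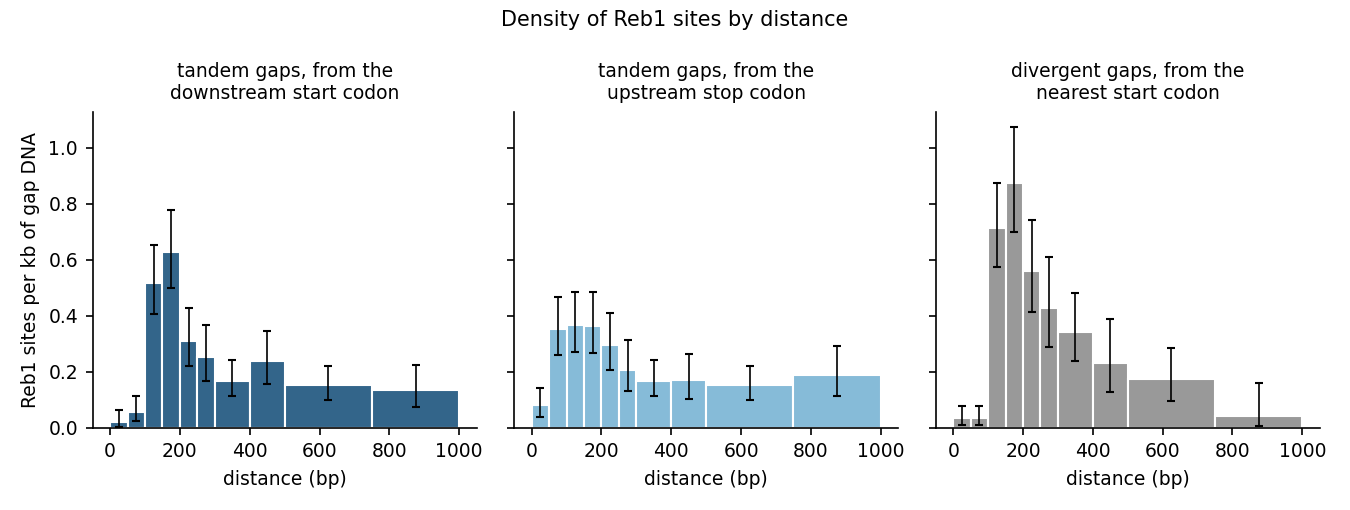
Reb1 sites per kb of gap DNA (vertical axis) by distance in bp (horizontal axis) from the downstream start codon in tandem gaps, from the upstream stop codon in tandem gaps, and from the nearest start codon in divergent gaps. Bars cover their distance class and whiskers are 95% exact Poisson intervals; in tandem gaps the density was 0.627 per kb at 150 to 200 bp from the start codon and 0.0218 per kb in the first 50 bp.

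Over all tandem gaps, sites were about as often nearer one gene as the other. Of the 348 sites, 170 (48.9%, 95% exact binomial interval 43.5 to 54.2) were nearer the start codon of the downstream gene than the stop codon of the upstream gene, which did not differ from an even split (exact binomial test, two-sided, p = 0.708). By gap length the split was uneven, with no test of a trend. All 12 sites in gaps of up to 200 bp were nearer the stop codon, and so were 38 of 55 in gaps over 200 and up to 300 bp and 38 of 66 over 300 and up to 400 bp. In a gap of up to 200 bp, a site nearer the start codon must lie within about 100 bp of it. Only 11 of the 348 sites were under 100 bp from it, so the split in short gaps is not separate from the distances given above. Of the next classes, 30 of 52 sites were nearer the start codon over 400 and up to 500 bp, 22 of 49 over 500 and up to 700 bp, and 22 of 40 over 700 and up to 1000 bp. In gaps over 1000 and up to 2000 bp, 34 of 47 sites were nearer the start codon, and in the longest class 17 of 27 were. These 27 include all 17 sites of 4 arrays near chromosome ends, described further on, whose separate sites are uncertain. In the 603 gaps of at least 700 bp the 2 ends can be told apart. There 36 sites lay within 350 bp of the start codon and 22 within 350 bp of the stop codon. Another 56 lay between, the 17 array sites among them. The start codon side thus held 62.1% (48.4 to 74.5) of the 58 sites near an end, which did not pass (exact binomial test, two-sided, p = 0.0869, a comparison added after the data were seen). At 100 to 200 bp the 2 sides held 17 and 8 sites, and under 100 bp they held 4 each.

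**Figure D2:**
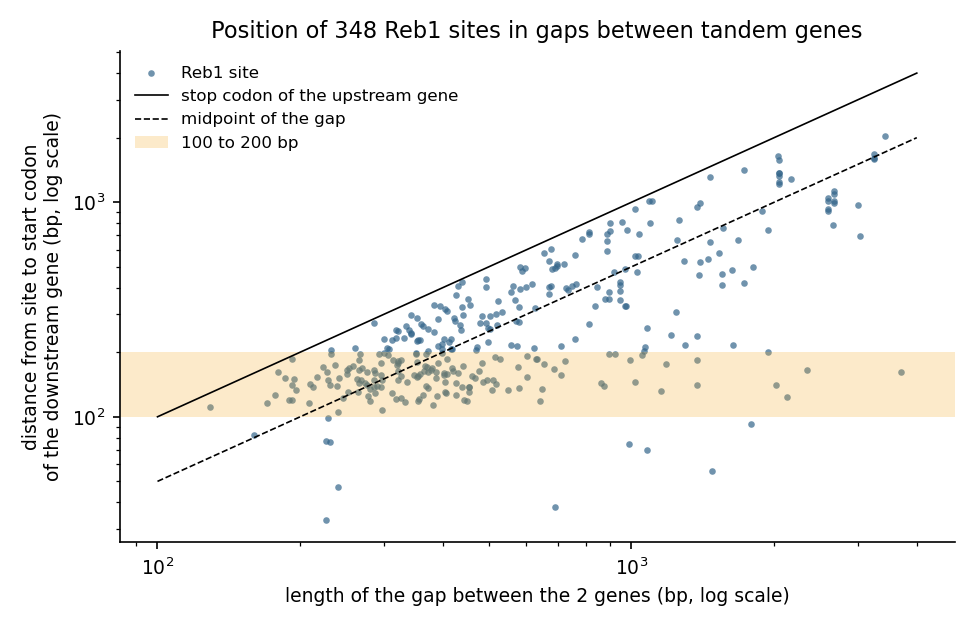
Distance in bp from each of the 348 sites to the downstream start codon (vertical axis, log scale) against the length of its gap in bp (horizontal axis, log scale). Each point is 1 site, the solid line is the stop codon of the upstream gene, the dashed line is the midpoint of the gap and the band marks 100 to 200 bp; 154 sites lie in the band, and 11 lie below it.

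Per kb of gap DNA, tandem gaps held fewer sites at the promoter distance than divergent gaps did. At 100 to 200 bp from the nearest downstream start codon there were 154 sites in 269 kb of tandem gap DNA (0.572 per kb) and 179 sites in 229 kb of divergent gap DNA (0.783 per kb). The ratio was 0.730 (0.585 to 0.910; exact conditional binomial test of the rates, two-sided, p = 0.00422). At 150 to 200 bp the densities were 0.627 per kb in tandem gaps and 0.873 per kb in divergent gaps, and at 200 to 250 bp 0.311 and 0.561 per kb. These densities are per base pair and not per motif, since no genome sequence was used. The difference missed the threshold of the same exact test among sites at or above the median score (ratio 0.768, p = 0.0651), in gaps with 1 site (0.822, p = 0.101) and on chromosomes V to IX (0.824, p = 0.394).

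The extremes of position show individual promoters. The site closest to a start codon was 33 bp before PRT1, which encodes a subunit of translation initiation factor eIF3 (chromosome XV, 1017680 to 1017689), and it was listed in 1 row. Next were RPL11B, a gene for a large-subunit protein of the cytosolic ribosome (38 bp, 1 row), MRP13, a gene for a mitochondrial small-subunit ribosomal protein (47 bp, 5 rows), YOL163W (56 bp, 1 row) and MRPL10, a gene for a mitochondrial large-subunit protein (70 bp, 2 rows). MRP13 and RPL11B are neighbours on chromosome VII, so that RPL11B is the gene upstream of the MRP13 gap, and both gaps held a site under 50 bp from the start codon. Of the 11 sites under 100 bp, 4 were listed once. The farthest site was 2045 bp before THI72, of the thiamine transporter family, in a gap of 3420 bp, and the next were 3 sites before YLL066C at 1584 to 1685 bp and 1 before DAL5, the allantoate permease gene (1637 bp).

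At the other end, the site closest to a stop codon lay 9 bp past the coding sequence of POP3, a subunit of the RNase P and RNase MRP complexes, and 185 bp before HCH1, which encodes a regulator of the Hsp90 chaperone (chromosome XIV, 108278 to 108287, 5 rows). The next were 14 bp past CMR1 and 274 bp before the B-type cyclin gene CLB3 (5 rows), 18 bp past the meiotic gene ZIP2 and 424 bp before the cyclic AMP phosphodiesterase gene PDE1 (1 row), and 20 bp past YDR102C and 162 bp before ARX1, a ribosome export factor gene (5 rows). The last was 20 bp past the vacuolar SNARE gene VAM7 and 111 bp before NCS6, a tRNA thiolation gene, in a gap of 129 bp. In 3 of these 5 gaps the site was therefore also within 200 bp of a start codon.

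Over all 348 sites, the motif strand had no clear orientation relative to transcription. Both flanking genes share a strand, so each tandem site has 1 orientation, and in 157 of 348 (45.1%, 39.8 to 50.5) the motif lay on the strand of the genes. This did not pass against an even split (exact binomial test, two-sided, p = 0.0767). The share was 44.8% (36.8 to 53.0) among sites 100 to 200 bp from the start codon and 42.4% (34.6 to 50.5) among those under 200 bp from the stop codon. For downstream genes on the + strand it was 42.0% (79 of 188), and on the − strand 48.8% (78 of 160). The 22 sites within 20 kb of a chromosome end include the 17 sites of 4 arrays, described further on. In all 17 the motif lay on the strand of the genes, and each was counted as a separate site. By the same exact test the share passed without those 22 sites (42.9%, p = 0.0126) and in gaps with 1 site (44.1%, p = 0.0483), so the call depends on which sites of arrays are counted.

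Each site has a deposited score (definition not given in the sources used here). It took only 27 distinct values, from 11.1 to 14.3, and all of them were whole multiples of 1/58 to within the rounding of 4 decimals. The median over the Reb1 list was 12.3. No difference from divergent sites was detected at the median: 198 of 348 tandem sites (56.9%) and 193 of 342 divergent sites (56.4%) were at or above it, a difference of 0.464 percentage points (SE 3.77; odds ratio 1.02, 0.746 to 1.39; Fisher's exact test, Benjamini-Hochberg over 5 tests, adjusted p = 0.939). Tandem sites scored higher than sites inside protein-coding genes, of which 98 of 224 (43.8%) were at or above the median. The tandem share exceeded theirs by 13.1 points (SE 4.25; odds ratio 1.70, 1.19 to 2.42; adjusted p = 0.00688 by the same exact test). Among sites listed in at least 2 rows the difference was 11.1 points, with adjusted p = 0.0851 by this exact test, and over all alternatives the adjusted p ran from 9.26e-07 to 0.344.

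The share of sites between tandem genes did not follow the score in steps. At the top score of 14.3276, 18 of 39 sites (46.2%) were between tandem genes and 3 were inside genes. At 13.7069 these numbers were 32 of 67 (47.8%) and 3. Neighbouring scores could differ: at 11.9310, 24 of 55 sites (43.6%) were between tandem genes and 5 inside genes, and at 11.9483, 10 of 35 (28.6%) and 18. At 12.1552, 20 of 43 sites (46.5%) were between tandem genes and 4 inside genes, and at 12.2586, 11 of 45 (24.4%) and 21. These levels were picked after their values were seen and no test was run on them.

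**Figure D3:**
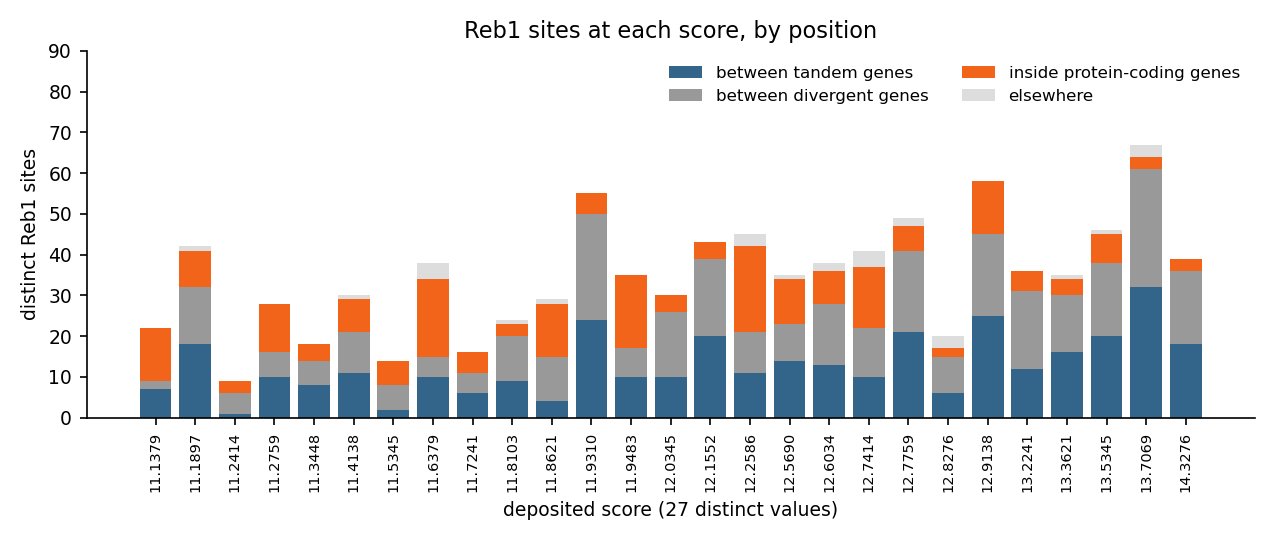
Number of distinct Reb1 sites (vertical axis) at each of the 27 deposited scores (horizontal axis, in increasing order and not to scale), divided by position. Tandem sites are fewer than sites inside genes at 11.9483 (10 and 18) and 12.2586 (11 and 21), and more numerous than them at 13.7069 (32 and 3).

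The top score was shared by 18 tandem sites. The 8 of them listed in 5 rows stood before TAF2, a subunit gene of the general transcription factor TFIID (144 bp; chromosome III, 205536 to 205545), MOT2, a subunit gene of the Ccr4-Not complex (224 bp; chromosome V, 292822 to 292831), USE1, a SNARE gene of Golgi to endoplasmic reticulum traffic (676 bp), and ERG25, a sterol demethylation gene (655 bp). The others were before GFA1, which encodes the first enzyme of the chitin precursor pathway (414 bp), the gamma-tubulin gene TUB4 (136 bp; chromosome XII, 566412 to 566421), the ribosomal protein gene RPL15B (154 bp; chromosome XIII, 510497 to 510506) and the glutamine synthetase gene GLN1 (669 bp). HOS4, encoding a subunit of the Set3 deacetylase complex (129 bp), had 4 rows and SET4 (1417 bp) had 3. RPN3, a proteasome lid gene (160 bp; chromosome V, 196784 to 196793), and NAT2 (179 bp) had 2. Distances among these 12 thus ran from 129 to 1417 bp, with 6 of them between 100 and 200 bp.

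The lowest score, 11.1379, was held by 7 tandem sites and 13 sites inside genes. The named tandem ones were before the actin gene ACT1 (373 bp, 5 rows), the casein kinase gene YCK1 (247 bp, 4 rows), the spindle gene STU1 (184 bp, 2 rows), the aspartyl protease family gene YPS7 (200 bp, 2 rows) and MRPL22, a mitochondrial ribosomal protein gene (137 bp, 2 rows). A low score thus occurred with as many as 5 rows and a top score with as few as 1.

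Identical rows were repeated in the list up to 5 times, with a meaning not given in the sources used here. Of the tandem sites, 62 (17.8%) had 1 row, 102 (29.3%) had 2, 49 (14.1%) had 3, 52 (14.9%) had 4 and 83 (23.9%) had 5. At least 2 rows were found for 286 of 348 tandem sites (82.2%) and 160 of 224 sites inside genes (71.4%), a difference of 10.8 points (SE 3.65; odds ratio 1.84, 1.21 to 2.81; Fisher's exact test, adjusted p = 0.00688). The tandem share differed by −5.24 points from that of divergent sites, 299 of 342 (87.4%), which did not pass (SE 2.72; odds ratio 0.664, 0.424 to 1.03; Fisher's exact test, adjusted p = 0.0715). Tandem sites with 1 row had a median distance of 172 bp from the start codon, with 51.6% of them at 100 to 200 bp. For 2, 3 and 4 rows the medians were 202.5, 219 and 208 bp, with 45.1%, 40.8% and 42.3% at 100 to 200 bp. Those with 5 rows had a median of 258 bp, with 41.0% at 100 to 200 bp. They include sites of the arrays near chromosome ends, described further on, and no trend was tested. Among sites at or above the median score, the difference in rows from sites inside genes was 6.76 points, with adjusted p = 0.164 by the same exact test, and over all alternatives the adjusted p ran from 0.00418 to 0.344.

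**Figure D4:**
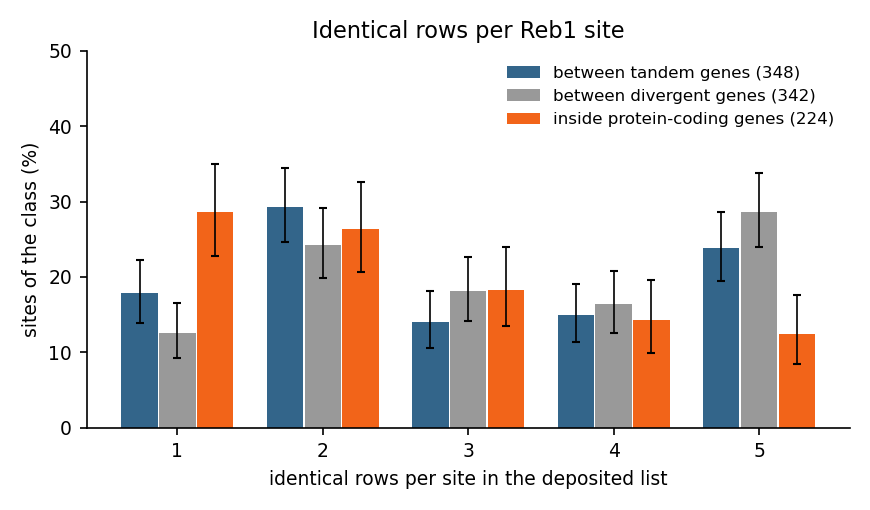
Share of the sites of each position class in percent (vertical axis) by the number of identical rows per site (horizontal axis) for 348 sites between tandem genes, 342 between divergent genes and 224 inside protein-coding genes. Whiskers are 95% exact binomial intervals; 23.9% of tandem sites and 12.5% of sites inside genes had 5 rows.

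Abf1, another general regulatory factor, had its own deposited list of 1365 sites. An Abf1 site lay within 200 bp of 26 of 348 tandem Reb1 sites (7.47%) and of 41 of 342 divergent ones (12.0%), a difference of −4.52 points (SE 2.25; odds ratio 0.593, 0.339 to 1.02; Fisher's exact test, adjusted p = 0.0715). With a window of 100 bp, 15 tandem sites (4.31%) and 33 divergent sites (9.65%) had one, a difference of −5.34 points (Fisher's exact test, adjusted p = 0.0112, and from 0.0112 to 1 over all alternatives). Abf1 sites themselves were sparser in tandem gaps, at 0.216 per kb against 0.327 per kb in divergent gaps, and the part of that density in the difference was not tested. Within 50 bp there were 11 tandem sites.

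The closest neighbour of an Abf1 site was the Reb1 site before GIS1, a zinc finger regulator gene, with centres 2 bp apart (chromosome IV, 636200 to 636209), so that the 2 motifs overlapped. Next were VMA13, encoding a subunit of the vacuolar proton pump (17 bp), RPO21, encoding the largest subunit of RNA polymerase II (20 bp), the ADP-ribosylation factor gene ARF2 (20 bp), SUI3, encoding a subunit of initiation factor eIF2 (20 bp), and POP2, a deadenylase gene (21 bp). NOP56, encoding a core protein of box C/D small nucleolar ribonucleoproteins (23 bp), and SEC21, encoding a COPI coat subunit (25 bp), followed. The sites of VMA13, SUI3, POP2 and NOP56 were 185 to 212 bp from their start codons, while those of GIS1, RPO21, ARF2 and SEC21 were 350 to 935 bp away.

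In 20 gaps there was more than 1 site, 51 sites in all. Of the 14 gaps with 2 sites, 8 had them under 70 bp apart, 7 had both sites in 5 rows, and 8 had both motifs on the same strand. The closest pair, before the elongation factor 3 gene YEF3, had centres 11 bp apart at 506 and 517 bp from the start codon (chromosome XII, 636259 to 636279, 4 rows each). RPO21 had a pair 15 bp apart at 708 and 723 bp (chromosome IV, 211264 to 211288), TUB4 a pair 26 bp apart at 136 and 162 bp, and CDC33, which encodes the cap-binding protein eIF4E, a pair 31 bp apart at 199 and 230 bp. MOT2 had a pair 34 bp apart and NQM1, a transaldolase gene, a pair 54 bp apart. In RPO21, TUB4, CDC33, MOT2 and NQM1 every site of the pair was listed in 5 rows. The 10 bp sites of YEF3 stood next to each other without overlap.

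The gap before ACT1 and after YPT1, a Rab GTPase gene, held 3 sites in 669 bp, at 373, 403 and 531 bp from the ACT1 start codon (chromosome VI, 55064 to 55231), with 5, 5 and 4 rows. HSH49, which encodes a splicing factor of the U2 small nuclear ribonucleoprotein, had 3 sites at 140, 183 and 951 bp, the near ones with 5 rows each and the far one with 1 row.

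REB1 itself had a pair of sites in its tandem gap downstream of REG2. They stood at 126 and 264 bp from the REB1 start codon (chromosome II, 336939 to 336948 and 337077 to 337086), both on the + strand and both in 5 rows, with scores of 12.7 and 13.2. The gap was 364 bp long, so the second site was 102 bp from the end of REG2. Of the genes for the catalytic subunits of the remodelers in the reactions, only ISW2 had a tandem upstream gap (379 bp), and it held no Reb1 site. ABF1, CHD1 and STH1 have a divergent upstream neighbour, and the coding sequence of INO80 overlaps that of its upstream neighbour, so these genes could not have a tandem site.

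The other 4 gaps with 3 or more sites all lay within 20 kb of a chromosome end and held 17 sites. YHR218W, after the IMP dehydrogenase gene IMD2, had 6 sites over 356 bp (chromosome VIII, 556432 to 556797), at 1222 to 1578 bp from the start codon. YLR462W, after PAU4, had 4 sites (chromosome XII, 1064820 to 1064970), YBL111C, after PAU9, had 4 (chromosome II, 5912 to 6063), and YLL066C, after PAU18, had 3 (chromosome XII, 11415 to 11525). PAU genes are the seripauperin family, found near many yeast chromosome ends. In each array all motifs lay on 1 strand. Along that strand, scores of 12.5690, 13.3621 and 11.1897 came in this order in all 4. The YHR218W array also had a site of 11.1897 before these. A site of score 13.3621 was followed 20 bp on by one of 11.1897 in 3 of these gaps and 19 bp on in the other. A site of 12.5690 came 81 to 85 bp before it in all 4.

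The same pairs recurred outside tandem gaps. Over the whole Reb1 list 112 pairs had centres at most 150 bp apart, and 32 of them shared both scores, the spacing and the orientation with another pair. All 32 were within 13.0 kb of an annotated chromosome end. The pair of 11.8621 and 12.5690 at 37 bp had 5 copies, 2 of them in tandem gaps. How reads shared by near-identical ends were assigned was not given in the sources used here, so the separate sites of these arrays are uncertain. Rows differed between the copies, with 5 for every site before YLR462W and YLL066C, 3 to 5 before YBL111C, and 1 to 5 before YHR218W.

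**Figure D5:**
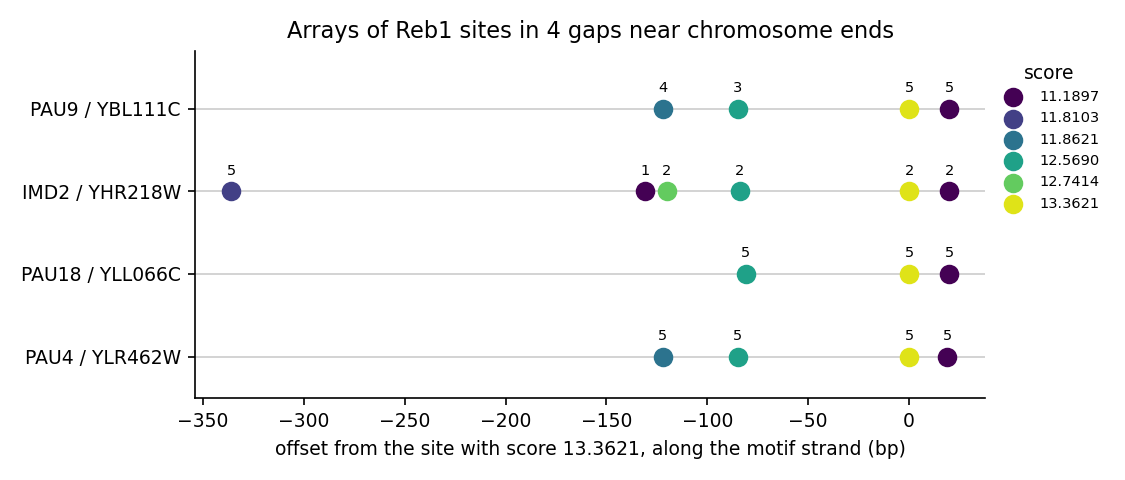
Position of each site in bp (horizontal axis) relative to the site of score 13.3621, along the motif strand, in the 4 tandem gaps near chromosome ends that hold 3 or more sites (rows, named upstream gene / downstream gene). Colour gives the deposited score and the number above a point its identical rows; a site of score 11.1897 follows at 19 or 20 bp in all 4 gaps.

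Some tandem gaps also hold a non-coding gene. Such gaps had a site in 26 of 174 cases (14.9%), against 11.2% of all tandem gaps. Those with a tRNA gene had one in 16 of 124 (12.9%) and those with a small nucleolar RNA gene in 8 of 28 (28.6%). Long tandem gaps of any kind also stood above 11.2%, with 13.8% over 700 and up to 1000 bp and 15.5% over 1000 and up to 2000 bp. Gaps were not matched for length here, and the part of length in these shares was not tested. Sites in the gaps with a small nucleolar RNA gene were on its 5′ side in 6 cases (median 195.5 bp from it) and on its 3′ side in 3 (median 214 bp). Where the nearest non-coding gene was a tRNA gene, 11 sites were on its 5′ side (median 634 bp) and 7 on its 3′ side (median 199 bp). The site before YLR162W was 29 bp from the 5S ribosomal RNA gene RDN5-6, had the top score and was listed in 1 row. Those nearest a tRNA gene were before BUR6, a transcription regulator gene (42 bp from YNCE0028C), and ATP1, encoding a subunit of the ATP synthase (69 bp from YNCB0002W). Near small nucleolar RNA genes they were before PDX3, a vitamin B6 metabolism gene (107 bp from SNR161), USE1 (122 bp from SNR82) and TFA2, encoding a TFIIE subunit (145 bp from SNR42). The USE1 and TFA2 sites lay 5′ of SNR82 and SNR42. The USE1 site, 676 bp from its start codon, was thus nearer to SNR82.

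To describe which genes the sites precede, 24 lists of genes were set against the 11.2% of all tandem gaps that held a site. The lists together had 747 genes with a tandem upstream gap, of which 147 (19.7%) had a site in it, while for genes in no list this was 170 of 2078 (8.18%). The share was above 11.2% in 22 of the 24 lists. The counts are descriptions without a test, since the lists were chosen with earlier results known.

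Translation factors stood highest, with a site before 12 of 27 genes (44.4%). Those with sites nearest the start codon were PRT1, RPG1, encoding another eIF3 subunit (146 bp, 5 rows), GCD11, encoding the gamma subunit of eIF2 (160 bp, 5 rows), SUI3 (185 bp, 4 rows) and GCD2, encoding a subunit of the exchange factor eIF2B (194 bp, 2 rows). Proteasome genes had 6 of 15 (40.0%), with the core particle genes PRE4 (157 bp) and PRE9 (168 bp) and the regulatory particle genes RPN3 (160 bp), RPN2 (169 bp) and RPT1 (199 bp). The sixth, before the proteasome activator gene BLM10, was at 257 bp.

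Genes of the transcription apparatus followed. TFIID, SAGA and general transcription factors had 6 of 18 (33.3%), among them TAF2, TFA2 (156 bp), BUR6 (196 and 353 bp), and the SAGA subunit genes SGF11 (229 bp) and SPT7 (237 bp). Of nuclear RNA polymerase subunit genes 2 of 10 (20.0%) had a site, RPO21 and RPB2, which encode the 2 largest subunits of RNA polymerase II, and both had them far from the start codon, at 708 and 723 bp and at 402 bp. Pre-mRNA splicing genes had 8 of 33 (24.2%), including SPP2 (118 bp), SNT309 (125 bp) and SMD2 (148 bp). Chromatin remodeler subunit genes had 3 of 23 (13.0%), near the share of all gaps, with IES4 of INO80 (120 bp) and NPL6 (165 bp) and RSC3 (403 bp) of RSC. Histone and histone chaperone genes had 2 of 10 (20.0%), the chaperone genes NAP1 (120 bp) and SPT6 (179 bp).

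Membrane traffic and transport lists stood above the 11.2% of all gaps, as 22 of the 24 lists did. Beside the 19.7% of all listed genes, the vacuolar and nuclear pore lists stood higher. The secretory pathway and glycosylation lists stood lower. Vacuolar sorting and proton pump genes had 13 of 42 (31.0%), with VPS70 (77 bp), PEP7 (130 bp), VPS68 (136 bp) and VMA8 (141 bp) closest to the start codon. Nuclear pore and transport genes had 11 of 37 (29.7%), with the mRNA export genes GLE1 (131 bp) and DBP5 (137 bp), the pore genes NIC96 (139 bp) and NUP53 (151 bp) and the importin alpha exporter gene CSE1 (151 bp). Secretory pathway genes had 7 of 37 (18.9%), with the exocyst gene SEC8 (148 bp) nearest. Glycosylation genes had 6 of 35 (17.1%), among them the oligosaccharyltransferase genes OST4 (129 bp) and WBP1 (149 bp).

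Kinetochore and spindle genes had 10 of 41 (24.4%), with the DASH complex gene DAD1 (121 bp), the Ndc80 complex gene SPC24 (131 bp), TUB4, the inner kinetochore gene OKP1 (139 bp, top score) and the spindle pole gene SPC110 (154 bp). Ubiquitin enzyme and anaphase-promoting complex genes had 10 of 39 (25.6%), with SKP1 of the SCF ligase (158 bp, 97 bp from an Abf1 site) and CDC27 of the anaphase-promoting complex (210 bp). DNA replication genes had 3 of 26 (11.5%), close to all gaps, with DBF4 (271 bp), TOP1 (281 bp) and RNR1 (426 bp), none of them at 100 to 200 bp.

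The ribosome and mitochondrial lists had unequal shares. Cytosolic ribosomal protein genes had 5 of 61 (8.20%), below all gaps, namely RPL11B, RPL15B, RPL41A (162 bp), RPS20 (186 bp) and RPS12 (215 bp). Ribosome biogenesis genes had 12 of 74 (16.2%), all at 134 to 222 bp, with KRI1 (134 bp), RRP36 (135 bp) and ENP2 (152 bp) nearest. The mitochondrial ribosomal protein list, made from gene names alone, had 7 of 31 (22.6%). Its sites were at 47 bp for MRP13, 70 bp for MRPL10, 99 bp for MRPS12, 105 bp for MRPL9, 137 bp for MRPL22, 146 bp for MRP10 and 242 bp for MRP8. Whether each named gene, MRP8 among them, encodes a ribosomal subunit was not checked. The median over these 7 sites was 105 bp, beside 208.5 bp for all tandem sites, as a description without a test. Mitochondrial import and quality control genes had 4 of 21 (19.0%), with the translocase genes TIM12 (138 bp) and TIM17 (143 bp), and aminoacyl-tRNA synthetase genes 2 of 11 (18.2%), VAS1 (143 bp) and ILS1 (175 bp).

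Among metabolic genes, the median distance from site to start codon was 397 bp for amino acid biosynthesis (3 sites), 394 bp for central carbon metabolism (5 sites), 351.5 bp for lipid synthesis (6 sites) and 230 bp for the respiratory chain and ATP synthase (7 sites), beside 208.5 bp for all tandem sites. This was not particular to metabolism. The median was 708 bp for RNA polymerase subunits (3 sites), 281 bp for DNA replication (3 sites) and 267 bp for the secretory pathway (7 sites). Amino acid biosynthesis genes had 3 of 50 (6%), the lowest share of the 24 lists, with TRP5 (162 bp), HIS1 (397 bp) and GLN1 (669 bp). Central carbon genes had 5 of 35 (14.3%), and of these the pyruvate dehydrogenase gene PDA1 had a site at 157 bp, while those of the transketolase gene TKL1 (381 bp), the triose phosphate isomerase gene TPI1 (394 bp), KGD1 of the citric acid cycle (415 bp) and the pyruvate decarboxylase gene PDC1 (806 bp) were farther. Sterol, fatty acid and phospholipid genes had 5 of 34 (14.7%), with DGK1 (149 bp), PSD1 (229 bp), FAS2 (295 bp), ERG5 (408 bp) and ERG25. Respiratory chain and ATP synthase genes had 6 of 40 (15.0%), with the cytochrome oxidase assembly gene COX14 (113 bp, top score, 1 row) nearest. General regulatory factors had 1 of 5, REB1.

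The median tandem gap differed between these lists, from 281 bp for the synthetase genes to 829 bp for the polymerase genes. Its part in the shares and in the distances was not tested. Cytosolic ribosomal protein genes, with a low share, had a median gap of 544 bp, and translation factors, with the highest, 354 bp.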

How the data were processed

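The deposited values were 2 lists of 10 bp Reb1 and 16 bp Abf1 sites, each with its position, its strand and an undefined score, which the authors deposited for the whole series. The score was used only to rank and group sites. The submitters' processing notes name Bowtie, R64 and sacCer3 but give no role for them. Motif scanner, peak caller, thresholds and the samples that entered the lists were not given in the sources used here, nor was whether starts count from 0 or 1. Positions are as deposited.

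The lists held 2808 and 3699 rows. Identical rows were counted as 1 site, giving 942 and 1365. Centres were placed against an R64 RefSeq table that held 6431 nuclear genes (6002 protein-coding) as coding extents. Gene strand was read from the systematic name, and distances were rounded up to whole bp. No column of sample values was left unused (0), and no genome was given, so no sequence is shown.

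Members, gene lists and tests were chosen with earlier results of these data known. Named sites were the 12 highest and 5 lowest in score (ties by rows, then chromosome and start), gaps with 3 or more sites and the 6 closest pairs, the 5 nearest to and farthest from start codons, the 5 nearest stop codons, the 8 nearest Abf1 sites, up to 5 genes per list by distance, the 6 nearest non-coding genes, and REB1, ABF1 and remodeler genes. BLM10, MRP10 and MRP8 were added after their values were seen. Shares were compared by Fisher's exact test with Benjamini-Hochberg adjustment over 5 tests and a threshold of 0.05, and other tests were exact binomial tests. Sites are not replicates. Intervals are 95% and exact. Scripts were tested on simulated data and used scipy 1.17.1, pandas 2.3.3, numpy 2.4.6 and matplotlib 3.10.9 under Python 3.11.15.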

Additional observations from a re-analysis of the deposited data

How the results depend on the processing

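Of 112 alternative values, 91 kept their direction and their side of the threshold or, for counts, stayed within 1.5 times the value reported. Sites at or above the median score numbered 198 in 188 gaps, with 89 list genes. On these, by the exact tests of the report, the density ratio was 0.768 (p = 0.0651) and the difference in rows from sites inside genes 6.76 points (adjusted p = 0.164). Chromosomes V to IX held 100 sites in 88 gaps, with 47 list genes. There, by the same exact tests, the density ratio was 0.824 (p = 0.394), the score difference from sites inside genes 12.1 points and the row difference 13.2 points (adjusted p = 0.344 for both), and the score difference from divergent sites −1.06 points. That difference was −0.852 points with genes of any kind as flanks. Sites listed in at least 2 rows differed in score from sites inside genes by 11.1 points (Fisher's exact test, adjusted p = 0.0851). In gaps of at least 300 bp, 54.1% of sites were nearer the start codon (exact binomial p = 0.191). In gaps with 1 site, by the same exact tests, the density ratio was 0.822 (p = 0.101), the share of motifs on the gene strand 44.1% (p = 0.0483), the Abf1 difference −5.52 points (adjusted p = 0.0461) and the start codon share in long gaps 66.0% (p = 0.0400). By Fisher's exact test the Abf1 difference was −5.34 points in a 100 bp window (adjusted p = 0.0112). Without sites within 20 kb of a chromosome end, chosen as a setting after the data were seen, the strand share was 42.9% (exact binomial p = 0.0126). The causes were not tested, though chromosomes V to IX and the score filter leave fewer sites. The row and score filters gave no value for the results they define. The core motif comparison was not run, since no sequence was given. No paired analysis was possible because the lists carry no samples, so no replicate could be left out either, and depth is unknown.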
